A study of Homo sapiens with 24 samples.

Results

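Versican, hyaluronan and the genes that build, bind and cut them were followed across the 24 libraries of a human cardiac differentiation study. The set holds 9 genes, chosen by name: VCAN, HAPLN1, HAPLN3, HAS2, HAS3, CD44, ADAMTS1, ADAMTS5 and ADAMTS9. They are 9 of the 62757 genes in the count table, and all 9 passed the filter on low counts that kept 17724 genes. The names were put together with results of these libraries in view. The value known to have been in view was the lower VCAN count in the atrial libraries labelled ZNF711, which is therefore described below without a test. Which other values bore on the choice is not recorded, so the tests below are not independent support for the set.

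Cardiac jelly is the swollen matrix between the muscle and the inner lining of the embryonic heart. Its frame is hyaluronan, a long sugar chain made at the cell membrane by the hyaluronan synthases HAS2 and HAS3 and bound at the surface of cells by the receptor CD44. Versican, the product of VCAN, is a large chondroitin sulfate proteoglycan that attaches to hyaluronan, and the link proteins HAPLN1 and HAPLN3 hold that attachment. The secreted proteases ADAMTS1, ADAMTS5 and ADAMTS9 cut versican. In the developing heart this matrix fills the endocardial cushions and the spaces of the early trabeculae, and it is cleared as the wall compacts.

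The cells were HES3 human embryonic stem cells with a GFP reporter at NKX2-5 and an mCherry reporter at NR2F2, grown as embryoid bodies toward cardiomyocytes with Wnt modulation for at most 14 days. CRISPR-Cas9 was directed at LHX2, ZNF503 or ZNF711, or at the T cell receptor gene TRAC as the control, so every group carried both reporters and a Cas9 target. Each of these lines was taken through 2 protocols, labelled AM and VM and read here as atrial and ventricular, and the atrial protocol added retinoic acid at day 4. This gave 8 groups of 3 libraries. The labels do not say whether a line was 1 clone, or what a replicate number stands for, so p-values measure the spread between these libraries, which may be technical.

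Total counts ran from 2899786 to 7438010 per library with a median of 5113566.5, and levels are given in CPM, which scales the counts of each library to a common total. A count of 3 in a library corresponded to 0.447 to 0.963 CPM. All 8 cardiomyocyte markers were detected in every group, and their summed level ran from 11030 to 41140 CPM. Counts of the targeted genes were not all lower than in TRAC: ZNF503 stood at 255 to 367 CPM in the AM libraries labelled ZNF503 against 103 to 123 CPM in AM TRAC, and LHX2 was at or below 6.92 CPM in every library. ZNF711 was at 25.9 to 33.9 CPM in the VM libraries labelled ZNF711 against 34.6 to 48.0 CPM in VM TRAC. In AM the ZNF711 counts overlapped, at 55.8, 41.1 and 31.2 CPM in the libraries labelled ZNF711 against 55.5, 60.3 and 47.4 CPM in TRAC. A count over a whole gene does not show a small edit, and the groups are named here as labelled.

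The genes differed widely in level. VCAN ranked 10th of 17724 genes by median CPM and took 0.142% to 0.441% of all scaled counts. Divided by the exon length of the gene model (GENCODE 29), the median VCAN level was 212 CPM per kb in the 12 AM libraries, and HAPLN1 followed at 16.7 CPM per kb. The AM medians of ADAMTS9 (16.6 CPM per kb), ADAMTS1 (16.2 CPM per kb) and HAS2 (14.0 CPM per kb) lay within the range of HAPLN1 (13.7 to 22.8 CPM per kb), so these 4 genes had no clear order. HAPLN3 came next at 4.13 CPM per kb, and CD44 (0.775 CPM per kb), ADAMTS5 (0.718 CPM per kb) and HAS3 (0.566 CPM per kb) were the lowest and overlapped each other. In the 12 VM libraries HAS2 moved from the fifth to the second place, with a median of 30.5 CPM per kb. The CD44 median there was 2.88 CPM per kb, and its lowest VM library (2.13 CPM per kb) lay above the highest library of ADAMTS5 or HAS3 (1.36 CPM per kb).

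**Figure D1:**
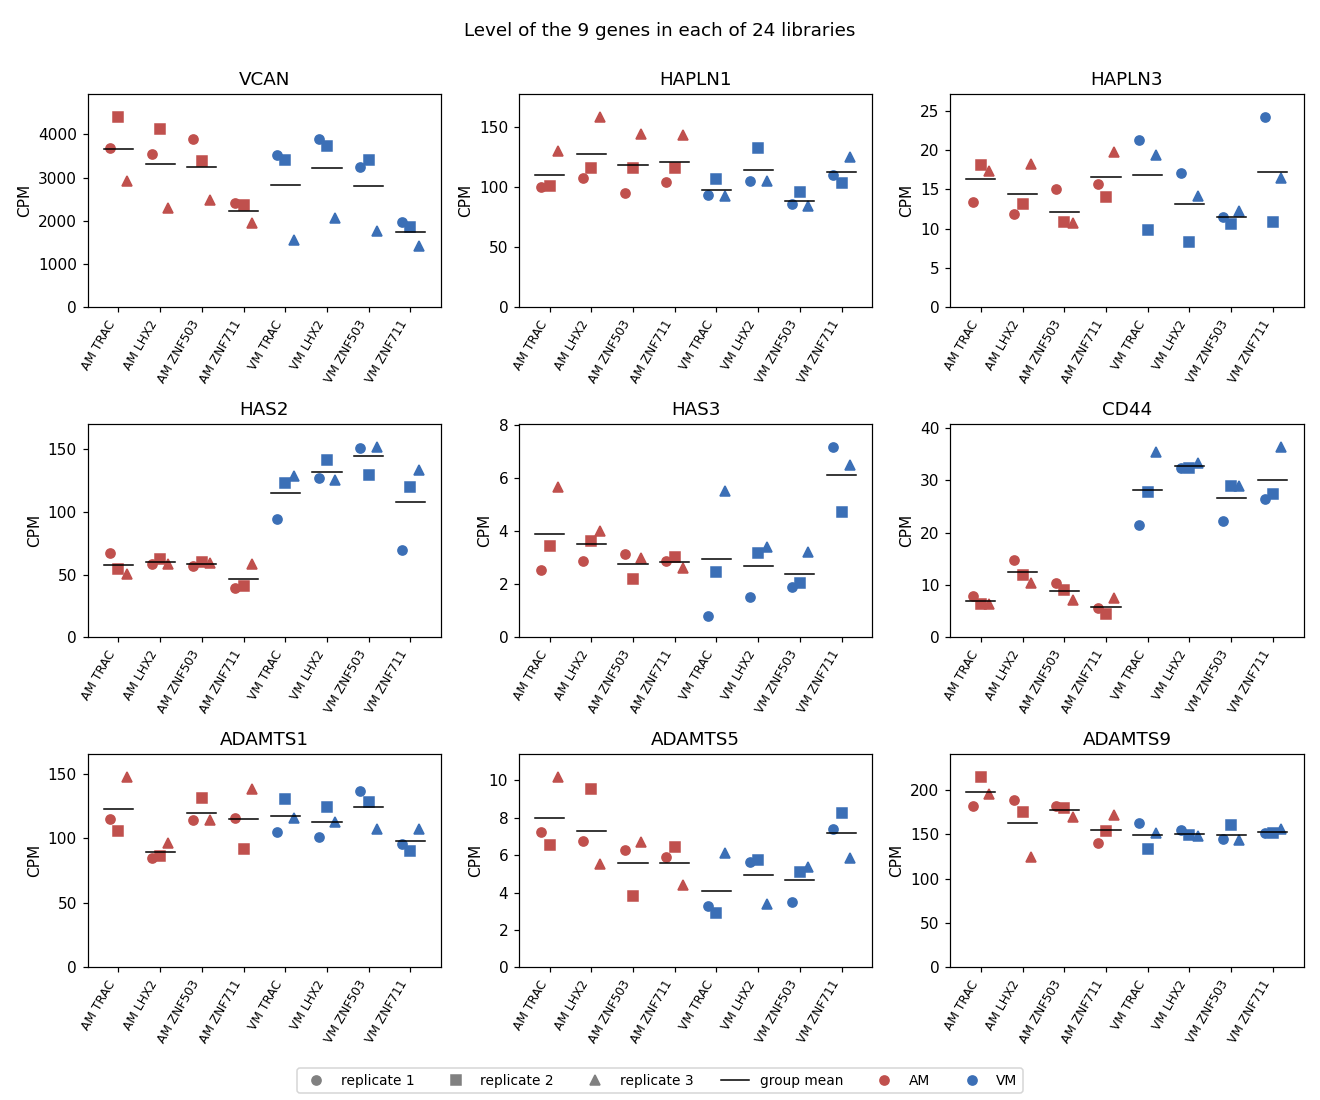
Levels of the 9 genes in CPM on linear axes that start at 0, 1 panel for each gene and 1 column for each group, with a point for each library (shape by replicate number, colour by protocol) and a line at the mean of the 3. CD44 (4.43 to 14.8 CPM in AM against 21.3 to 36.4 CPM in VM) and HAS2 (39.1 to 67.4 CPM in AM against 69.99 to 152 CPM in VM) separate by protocol, and the other 7 genes overlap.

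Versican lies beside its link protein in the genome (GRCh38, GENCODE 29). VCAN spans chr5:83471465-83582303 on the plus strand, and HAPLN1 spans chr5:83637805-83721613 on the minus strand, 55.5 kb away. ADAMTS1 (chr21:26835747-26845409) and ADAMTS5 (chr21:26917912-26966513) are a second neighbouring pair, 72.5 kb apart and both on the minus strand. CD44 spans chr11:35138870-35232402 in 21 exon blocks. The other genes lie on chromosomes 3 (ADAMTS9), 8 (HAS2), 15 (HAPLN3) and 16 (HAS3). Antisense genes share exon bases with VCAN, HAS2, CD44 and ADAMTS9, and CHTF8 shares 365 exon bases with HAS3. Without a stated strand setting these reads cannot be assigned. The antisense genes' own counts per library were 0 to 6 for VCAN-AS1, 2 to 14 for HAS2-AS1, 0 to 1 for CD44-AS1 and 0 to 6 for ADAMTS9-AS1. CHTF8 had 0 to 17 counts, which is not small beside the 4 to 37 of HAS3.

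CD44, the hyaluronan receptor, and HAS2, the main hyaluronan synthase of the embryonic heart, were lower in the atrial protocol whatever the target. CD44 was at 7.95, 6.40 and 6.38 CPM in AM TRAC replicates 1, 2 and 3, and at 21.3, 27.6 and 35.3 CPM in VM TRAC. The lowest VM library was above every AM library, and 26.1% of all genes had groups that did not overlap in this comparison. In edgeR's quasi-likelihood test CD44 was 4.07-fold lower in AM TRAC than in VM TRAC, with a log2 fold change of −2.03 (SE 0.24, adjusted p 2.01e-06). HAS2 was at 67.4, 54.6 and 50.8 CPM in AM TRAC and at 94.4, 123 and 128 CPM in VM TRAC. These groups did not overlap either, and HAS2 was 2.001-fold lower in AM (log2 fold change −1.001, SE 0.19, adjusted p 0.000635).

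Both differences recurred in the other 3 lines, each with its own libraries, although same-numbered libraries of different lines deviated together. CD44 was at 14.8, 11.9 and 10.5 CPM in AM LHX2 against 32.3, 32.3 and 33.2 CPM in VM LHX2, a log2 fold change of −1.41 (SE 0.24, edgeR adjusted p 0.000235). With the ZNF503 label it was at 10.4, 8.97 and 7.06 CPM in AM against 22.3, 28.8 and 28.8 CPM in VM (log2 fold change −1.59, SE 0.24, adjusted p 4.89e-05). In AM ZNF711 CD44 had its lowest level, 5.52, 4.43 and 7.55 CPM, against 26.5, 27.3 and 36.4 CPM in VM ZNF711 (log2 fold change −2.37, SE 0.25, adjusted p 4.26e-07). Within each line every AM library was below every VM library, where 23.9% (LHX2), 23.5% (ZNF503) and 32.9% (ZNF711) of all genes had groups that did not overlap in either direction. HAS2 showed the same order. It was at 58.8, 62.1 and 58.2 CPM in AM LHX2 against 127, 142 and 126 CPM in VM LHX2 (log2 fold change −1.14, SE 0.19, adjusted p 2e-04). HAS2 was at 56.7, 60.04 and 59.2 CPM in AM ZNF503 against 151, 129.5 and 152 CPM in VM ZNF503 (log2 fold change −1.30, SE 0.19, adjusted p 3.25e-05). The closest approach was in the ZNF711 line, with 39.1, 41.3 and 58.8 CPM in AM and 69.99, 119.6 and 134 CPM in VM (log2 fold change −1.22, SE 0.19, adjusted p 9.06e-05).

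CD44 and HAS2 were the members called lower in all 4 lines, and 1.2% of the 17724 genes tested were called lower in all 4. No member was called higher in all 4, against 2.23% of genes. Across protocols as a whole, the 12 AM libraries lay below the 12 VM libraries for the same 2 members and for 1.56% of genes, and above them for no member and for 2.69% of genes. In the 12 pairs of AM and VM libraries with the same target and number, CD44 in AM was 0.162 to 0.466 of its VM level and HAS2 0.345 to 0.714. Log2 CPM of the pair followed each other over the 24 libraries with a Pearson r of 0.92. That value carries the protocol difference, and the r of the deviations from the group means was 0.55. Leaving out replicate 2 everywhere ended the HAS2 call in the TRAC line (log2 fold change −0.91, edgeR adjusted p 0.0747), and the CD44 calls held under every alternative and every omitted library.

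Fewer cells of a type and less RNA per cell cannot be told apart in bulk libraries, and other cell types also differed between the protocols. Among the listed endoderm and hepatic markers, 4 of 8 were lower and 1 higher in AM TRAC, and their sum was 315 to 1102 CPM against 2260 to 18190 CPM in VM TRAC. Of the fibroblast and mesenchymal markers 2 of 8 were higher, with a sum of 5735 to 7081 CPM in AM TRAC against 1720 to 4984 CPM. Of the endothelial markers 4 of 8 were higher, at 593 to 826 CPM against 416 to 481 CPM. Epicardial markers were higher for 3 of 5 tested (119.5 to 141 CPM against 23.7 to 64.2 CPM), smooth muscle markers for 2 of 5 (1233 to 1838 CPM against 787 to 977 CPM), and cardiomyocyte markers lower for 3 of 8 (18170 to 21390 CPM against 14740 to 41140 CPM). In this comparison 6.18% of all genes were called higher and 5.12% lower. The marker lists were chosen with earlier results of these libraries known, so no excess is read from these counts. No marker averaged 0 in any group. The part of these cells in the CD44 and HAS2 differences was not tested.

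Upstream sequence from RefSeq (GRCh38.p14) was searched for the 5 of 9 members matched in its table: VCAN, HAPLN1, HAPLN3, HAS3 and CD44. The 250 bases before each start were searched on both strands for the retinoic acid receptor core motif AGGTCA, for its second form, which reads AGTTCA, for direct repeats of AGGTCA in which 1, 2 or 5 bases of any kind part the copies (and which contain the core motif), for the GATA factor motif AGATAA, for the TATA box as TATAAA, for the CCAAT box by those letters and for the GC box as GGGCGG. Matches were present for 3 of the 5. The matched stretches are shown 5′ to 3′ on the plus strand, with the matched bases in capitals.
CD44, chr11:35139107-35139136: tccctccgtcttAGGTCActgttttcaacc
CD44, chr11:35138998-35139027: acgGGGCGGgggcagaggggcCCGCCCggg
VCAN, chr5:83471562-83471591: ggagctgcctttCCGCCCctccgcctgctt
HAS3, chr16:69107305-69107334: gggggaggggtcCCGCCCagggaaggagag
The AGGTCA of CD44 begins 52 bases before the start, and 12.1% of 35116 promoters of this length held at least 1 such motif. GGGCGG, which begins 170 bases before the CD44 start and is read on the opposite strand as CCGCCC in all 3 genes, was present in 42.6% of promoters. No direct repeat matched in the 5 windows, and such repeats were rare overall (0.0171% of promoters for a spacing of 1 base, 0.00285% for 2 and for 5 bases). The second core motif, the GATA factor motif, the TATA box and the CCAAT box had no match in the 5 windows, and were present in 8.8%, 9.17%, 10.7% and 32.0% of promoters. In GENCODE 29 the CD44 and VCAN stretches also fall within the untranslated first exon of a longer transcript. A match is only a match of letters, and no binding was measured in these libraries.

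The other 7 members gave fewer differences between the protocols. In AM TRAC against VM TRAC 3 of 9 members were called by edgeR, 1 higher and 2 lower, against 11.3% of all genes (6.18% higher and 5.12% lower). The member called higher was ADAMTS9, a versican-cutting protease, at 183, 215 and 196 CPM in AM TRAC and 163, 133 and 152 CPM in VM TRAC. Its groups did not overlap, with a 1.33-fold difference (log2 fold change 0.41, SE 0.13, adjusted p 0.0463). That call was close to the threshold: it was lost in 8 of 9 fits that left out a library or a replicate number, and the adjusted p without replicate 2 was 0.53.

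VCAN itself was at 3681, 4407 and 2918 CPM in AM TRAC and at 3516, 3396 and 1549 CPM in VM TRAC. It was higher in AM at each replicate number, but the groups overlapped and the test did not call it (log2 fold change 0.38, SE 0.30, 95% interval −0.25 to 1.01, adjusted p 0.50). With the replicate number as a block the value was 0.44 (SE 0.13, edgeR adjusted p 0.0169), and VCAN was then among the 10.2% of genes called higher. In the ZNF711 line the blocked value of VCAN was also called, at 0.37 (SE 0.13, adjusted p 0.0401, 11.4% of genes called higher), and the fit without the block did not call it (0.35, SE 0.30, adjusted p 0.499). That comparison holds the AM ZNF711 libraries whose VCAN level was known when the genes were chosen. VCAN was higher in AM than in VM in 10 of 12 pairs of libraries with the same target and number, by ratios of 1.05 to 1.88. In the other 2 pairs, LHX2 replicate 1 and ZNF503 replicate 2, the ratios were 0.91 and 0.992.

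Neither link protein gene was called between the protocols in the main fit, which had no block. HAPLN1 was higher in AM in 9 of 12 pairs of libraries with the same target and number, and lower in 3, at ratios of 0.872 to 1.72. HAPLN1 averaged 110.4 CPM in AM TRAC, 127 in AM LHX2, 118 in AM ZNF503 and 121 in AM ZNF711, against 97.7, 114, 88.8 and 113 CPM in the matching VM groups. Its log2 fold change in the TRAC line was 0.18 (SE 0.17, 95% interval −0.17 to 0.52, edgeR adjusted p 0.592). In the ZNF503 line alone the blocked fit called it, at 0.40 (SE 0.13, adjusted p 0.0384, 7.85% of genes called higher), and the fit without the block gave 0.41 (adjusted p 0.15). Whether that line differed from TRAC in this respect was covered by the interaction below, which called no member. HAPLN3, the more widely expressed link protein, averaged 16.3, 14.4, 12.2 and 16.5 CPM in AM TRAC, LHX2, ZNF503 and ZNF711 and 16.9, 13.2, 11.46 and 17.2 CPM in VM. Its TRAC difference was −0.05 (SE 0.31, 95% interval −0.69 to 0.58, adjusted p 0.943), and its sign changed with the scaling and with the block.

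HAS3, the second synthase, was scarce at 4 to 37 counts per library. It averaged 3.87 CPM in AM TRAC and 2.94 CPM in VM TRAC, with a log2 fold change of 0.36 (SE 0.50, 95% interval −0.67 to 1.40, edgeR adjusted p 0.734). Its means were 3.501, 2.77 and 2.83 CPM in AM LHX2, ZNF503 and ZNF711, and 2.70, 2.38 and 6.12 CPM in VM. The highest group was VM ZNF711, with 7.17, 4.70 and 6.48 CPM. Only VM TRAC replicate 3, at 5.51 CPM, lay within that range among the VM TRAC libraries. The difference of HAS3 between VM ZNF711 and VM TRAC was 1.02 on the log2 scale (SE 0.50, 95% interval −0.01 to 2.05) and was not called (edgeR adjusted p 0.54).

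Among the remaining proteases, ADAMTS1 averaged 123, 89.2, 119.9 and 115 CPM in AM TRAC, LHX2, ZNF503 and ZNF711 and 117, 113, 124 and 97.9 CPM in VM. Its difference between protocols in the TRAC line was 0.07 on the log2 scale (SE 0.15, 95% interval −0.25 to 0.38, edgeR adjusted p 0.847). The AM LHX2 libraries, at 85.1, 86.4 and 96.2 CPM, lay below the AM TRAC libraries (115, 106 and 148 CPM), a difference of −0.46 (SE 0.15) that was not called (adjusted p 0.45). ADAMTS5, the versican-cutting protease whose loss is known to leave excess versican in heart valves, was low at 14 to 56 counts per library. It was at 7.23, 6.56 and 10.2 CPM in AM TRAC and 3.28, 2.89 and 6.11 CPM in VM TRAC. These groups did not overlap, but the difference was not called (log2 fold change 0.94, SE 0.37, adjusted p 0.104), and only the fit without VM TRAC replicate 3 called it (1.37, adjusted p 0.0398). ADAMTS5 averaged 7.28, 5.60 and 5.60 CPM in AM LHX2, ZNF503 and ZNF711, and 4.93, 4.67 and 7.18 CPM in VM. ADAMTS9 averaged 163, 177 and 155 CPM in those AM groups and 151, 149.7 and 153 CPM in the VM groups, and it was not called in those lines.

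In the other lines CD44 and HAS2 were the only members called without the block: 2 of 9 in the LHX2 line (8.56% of genes called, 3.88% lower), 2 of 9 in the ZNF503 line (8.86%, 4.1% lower) and 2 of 9 in the ZNF711 line (13.2%, 6.42% lower). DESeq2 also called 2 members in each of these lines, among 1956 genes called in the LHX2 line, 1918 in the ZNF503 line and 2851 in the ZNF711 line, and 3 members among 2517 genes in the TRAC line.

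**Figure D2:**
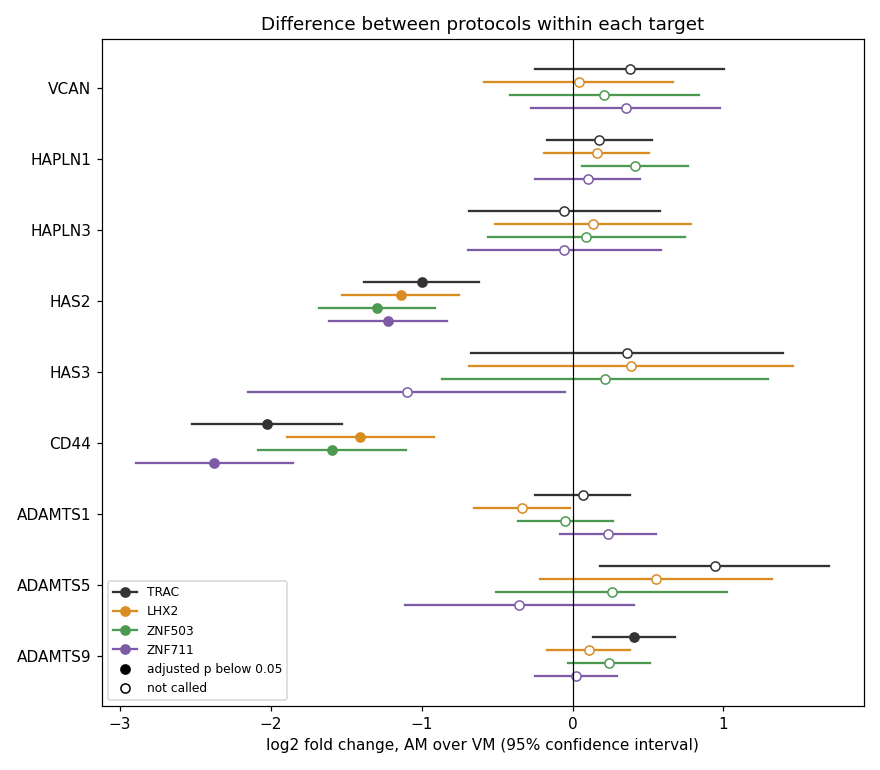
Fitted log2 fold change of each member in AM against VM within each of the 4 lines, from edgeR without a replicate block, with 95% intervals and filled points for an adjusted p under 0.05. CD44 (−2.37 to −1.41) and HAS2 (−1.30 to −1.001) stand to the left of 0 in all 4 lines, and ADAMTS9 is filled in the TRAC line alone.

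Targeting LHX2, ZNF503 or ZNF711 was compared with TRAC within each protocol. The 3 targets of a protocol share the same 3 TRAC libraries, so their values are not independent of each other. Without the block edgeR called 0 of 9 members in each of the 6 comparisons, and DESeq2 also called 0 (among 0 to 76 genes called). The background was equally empty: 0% of genes were called in 5 of the comparisons and 0.0169% in VM ZNF711 against VM TRAC. At an unadjusted p under 0.05 there were 3 members in AM LHX2 (CD44, ADAMTS1 and ADAMTS9), 1 in AM ZNF711 (ADAMTS9, leaving out VCAN, whose value was known), 2 in VM ZNF711 (VCAN and ADAMTS5) and 0 in the other 3. Among all genes 1372, 618 and 1666 were under 0.05 in those 3 comparisons.

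The mean level of versican was lower in the libraries labelled ZNF711 than in TRAC in both protocols. In AM ZNF711 it was at 2402, 2355 and 1959 CPM in replicates 1, 2 and 3, against 3681, 4407 and 2918 CPM in AM TRAC. The groups did not overlap, as for 11.7% of all genes there, and each ZNF711 library held 0.534 to 0.671 of the VCAN level of the TRAC library with its number. The fitted difference was −0.71 on the log2 scale (SE 0.30), or −0.69 with the replicate block (SE 0.13). This is the value that was in view when the genes were chosen, and it has no test here. With the block 0.0395% of all genes were called in that comparison (0.0226% lower).

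The ventricular libraries gave the same direction with no library in common, but they came from the same lines. Same-numbered AM and VM libraries also deviated together (r 0.27 to 0.52 for ZNF711 and 0.15 to 0.38 for TRAC), so this is not an independent repeat. VCAN was at 1982, 1857 and 1416 CPM in VM ZNF711 and at 3516, 3396 and 1549 CPM in VM TRAC. The groups overlapped through replicate 3 of TRAC, and the ratios at the same number were 0.564, 0.547 and 0.914. The fitted log2 fold change was −0.69 (SE 0.30, 95% interval −1.32 to −0.06), which was not called (edgeR adjusted p 0.481). With the replicate block it was −0.62 (SE 0.13, adjusted p 0.0137), and 1.02% of genes were then called lower and 2.27% in either direction. Without replicate 3 in every group, which takes out the TRAC library that overlapped, it was −0.83 (edgeR adjusted p 0.00586). Of the 9 fits without the block that left out a library or a replicate number, only that 1 called VCAN. At each of the 3 replicate numbers in VM, the VCAN level of the ZNF711 library was also below those of the LHX2 and ZNF503 libraries. The closest was VM replicate 3, at 1416 CPM against 1549 CPM for the lowest other line.

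The VCAN difference between ZNF711 and TRAC was also set side by side in the protocols. The interaction, the AM difference minus the VM difference, was −0.03 on the log2 scale (SE 0.43, 95% interval −0.91 to 0.86). Its sign changed with omitted libraries. It holds the AM value that was known beforehand, so no p-value is given for it. The interval is too wide to show whether the differences were alike, and nothing is concluded from it. In VM ZNF711 the summed cardiomyocyte markers were at 11030 to 17010 CPM against 14740 to 41140 CPM in VM TRAC, and the endoderm and hepatic markers at 6808 to 19320 CPM against 2260 to 18190 CPM. In AM ZNF711 the cardiomyocyte sum was at 19920 to 28970 CPM against 18170 to 21390 CPM in AM TRAC. The endoderm and hepatic sum there was at 1129 to 1994 CPM against 315 to 1102 CPM, and the epicardial sum at 57.7 to 96.5 CPM against 119.5 to 141 CPM. None of the markers on the 6 lists was called in these comparisons without the block. With the block none was called in AM ZNF711. In VM ZNF711 1 of 8 cardiomyocyte and 2 of 5 smooth muscle markers were then lower. There 1 of 8 fibroblast and 1 of 8 endoderm markers were higher, while 2.27% of all genes were called in either direction. The part of these cell types in the VCAN difference was not tested.

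With the block no member was called in the other 4 target comparisons, in which 1.13% of genes (AM LHX2), 0.00564% (AM ZNF503), 0.00564% (VM LHX2) and 0% (VM ZNF503) were. The nearest were in AM LHX2. The ADAMTS1 difference given above was −0.46 with the block (SE 0.14, edgeR adjusted p 0.0926). There CD44, at 14.8, 11.9 and 10.5 CPM against 7.95, 6.40 and 6.38 CPM in AM TRAC, had a log2 fold change of 0.83 (SE 0.25, edgeR adjusted p 0.404, or 0.1 with the block). Its groups did not overlap, and neither did those of 19% of all genes in that comparison. HAS2 in the same libraries differed by 0.05 (SE 0.19, 95% interval −0.34 to 0.44). Over the 6 comparisons HAS2 ranged from −0.32 to 0.32, HAPLN1 from −0.14 to 0.23 and ADAMTS9 from −0.35 to 0.03. Without the block the 3 interactions called 0 of 9 members (0% of genes for LHX2 and for ZNF503, 0.00564% for ZNF711). DESeq2 also called 0 members. At an unadjusted p under 0.05 the fit without the block had 1 member among the 3, ADAMTS5 for ZNF711, at −1.29 (SE 0.52, edgeR adjusted p 0.674). The blocked fit had 2 for LHX2 (VCAN and ADAMTS1) and 3 for ZNF711 (HAS3, ADAMTS5 and ADAMTS9). The share of all genes under 0.05 is not given here for the interactions, so no excess of members is read from these counts. For CD44 the interactions were 0.62 (LHX2, SE 0.33), 0.43 (ZNF503, SE 0.33) and −0.35 (ZNF711, SE 0.34), so the size of its protocol difference was not shown to depend on the target.

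**Figure D3:**
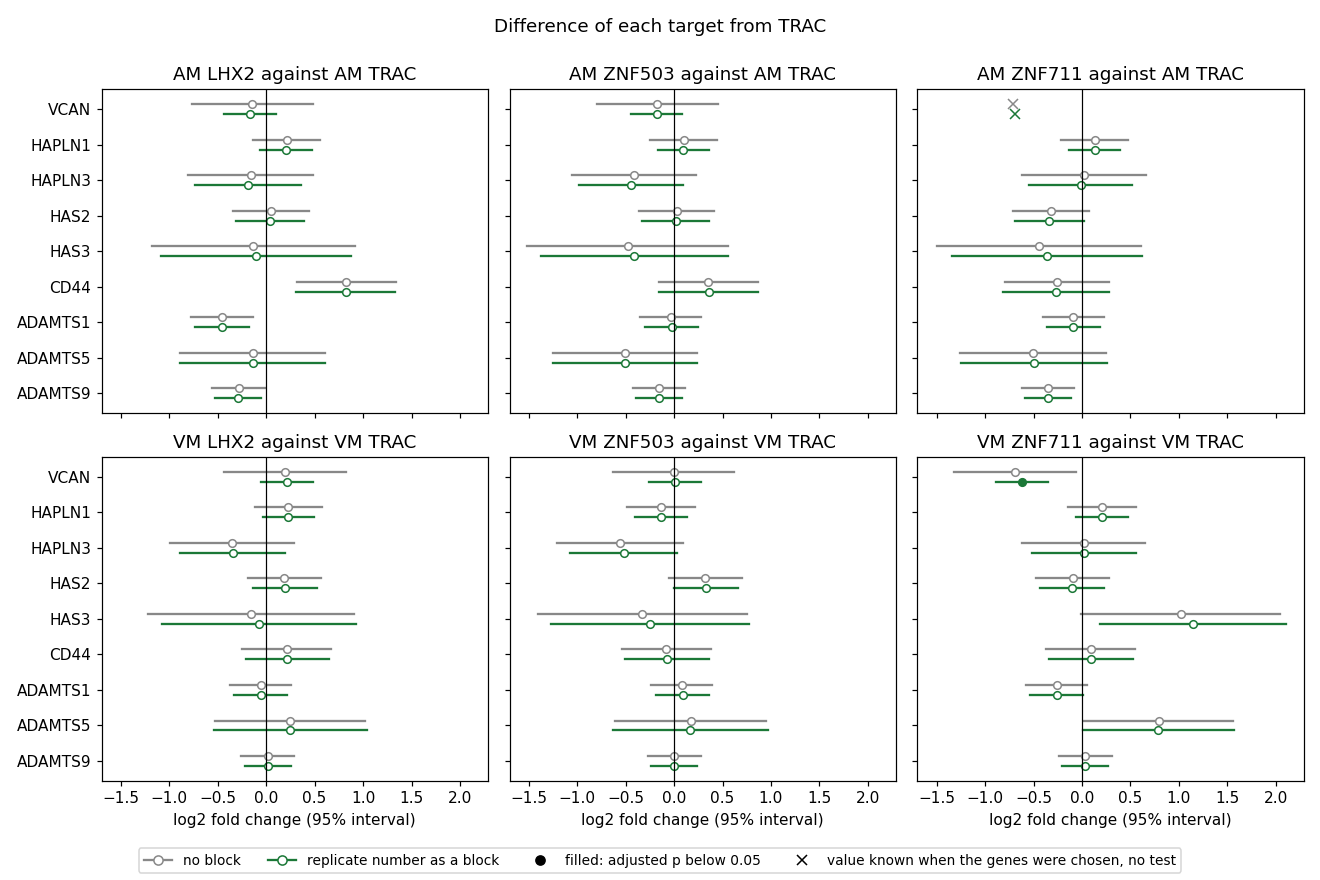
Fitted log2 fold change (horizontal axes) of each member in the 3 targets against TRAC, in AM (upper row) and VM (lower row), from edgeR without a block (grey) and with the replicate block (green), with 95% intervals and filled points for an adjusted p under 0.05. VCAN in VM ZNF711 with the block (−0.62) is the only filled point, and VCAN in AM ZNF711 (−0.69 with the block), known when the genes were chosen, is a cross with no interval or test.

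The VCAN level also moved with the replicate number. In all 8 groups replicate 3 lay below the group mean of log2 CPM and replicates 1 and 2 lay above it. The mean deviation of replicate 3 was −0.34 over the 4 AM groups and −0.57 over the 4 VM groups. In VM TRAC, for example, VCAN was at 3516, 3396 and 1549 CPM, while the cardiomyocyte marker sum was 41140, 35920 and 14740 CPM and the endoderm and hepatic sum 2441, 2260 and 18190 CPM in the same libraries. In AM TRAC the cardiomyocyte sum was instead highest in replicate 3, at 18170, 19120 and 21390 CPM, and the endoderm and hepatic sum was 407.8, 315 and 1102 CPM. The cardiomyocyte sum was also highest in replicate 3 of AM LHX2 and AM ZNF503, and lowest in replicate 3 of AM ZNF711. The part of these cell types in the VCAN pattern was not tested. HAPLN1 did not share the pattern: its AM replicate 3 was above the mean in 4 of 4 groups (mean deviation 0.28), and its VM replicate 3 in 1 of 4. HAS3 in VM replicate 3 was above the mean in 4 of 4 groups, and VCAN and HAS3 deviations correlated by −0.65 over the 24 libraries, as a description of libraries that share their number.

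**Figure D4:**
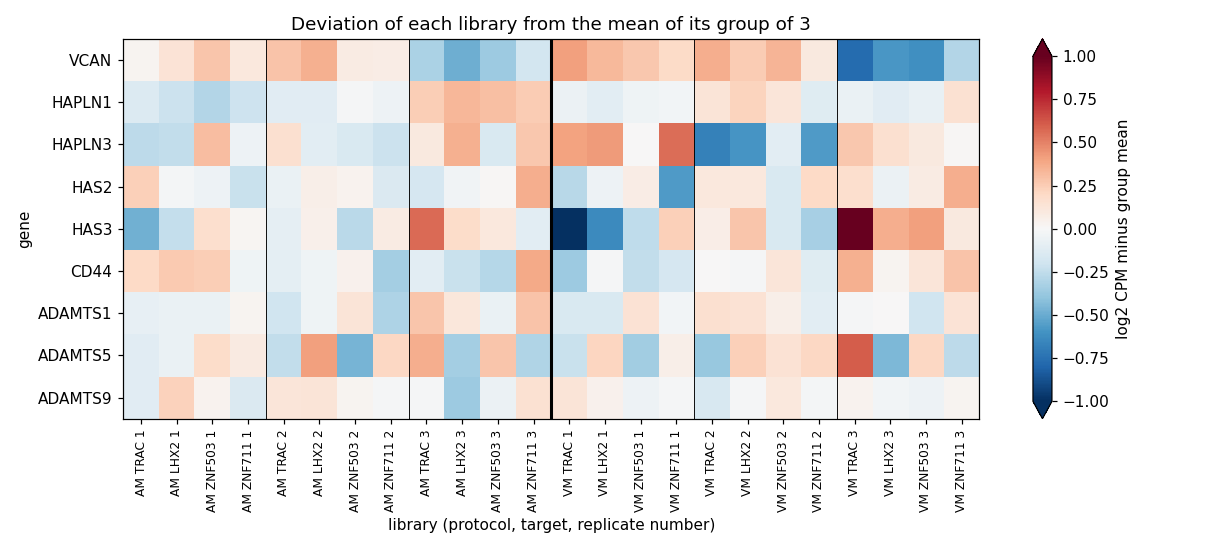
Heat map of the deviation of log2 CPM from the group mean (colour, red above and blue below), with 1 row for each member and 1 column for each of the 24 libraries, ordered by protocol and then by replicate number. In the VCAN row all 8 libraries of replicate 3 are blue, with mean deviations of −0.34 in AM and −0.57 in VM, and those of replicates 1 and 2 are red.

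The genes most like each member were taken by Pearson r of log2 CPM over the 24 libraries, among 11428 genes with a mean log2 CPM of at least 3. For VCAN they were MAGI2 (r 0.90), CEP78 (r 0.89) and MAGI2-AS3 (r 0.88). HAS2 and CD44 shared PYGL and LGR4 among their 3 closest genes. PYGL and LGR4 had an r of 0.94 and 0.92 with HAS2, and of 0.95 and 0.95 with CD44. The third gene was IRS1 for HAS2 (r 0.93) and SYT13 for CD44 (r 0.94). UGDH, which makes the sugar precursor UDP-glucuronic acid that synthases need, was the second closest gene to HAS3 (r 0.80), after MEX3C (r 0.82). For the other members the closest genes were SH3BGRL2 for HAPLN1 (r 0.83), SLC26A11 for HAPLN3 (r 0.70), CERCAM for ADAMTS1 (r 0.74), C3orf70 for ADAMTS5 (r 0.78) and TENM3 for ADAMTS9 (r 0.80). Libraries of a group and of a number share part of their variation, so these values describe the libraries only. With deviations from the group means in place of levels the closest gene to VCAN was FOXP1 (r 0.95). None of the 3 closest genes of VCAN, HAPLN1, HAS2, HAS3, CD44 or ADAMTS5 was then among the closest 3. HAPLN3, ADAMTS1 and ADAMTS9 kept 1 each.

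Around the 9 genes, 68 further genes of the matrix and its signals were listed by role, of which 61 passed the filter on low counts. The lists were drawn up with earlier results of these libraries known, so no excess over all genes is read from their counts. In AM TRAC against VM TRAC 15 of the 61 were called by edgeR, 8 higher and 7 lower, against 11.3% of all genes. The median log2 fold change of the 61 was −0.09 and that of all genes −0.03. With the replicate block 27 were called, 14 higher and 13 lower, against 19.4% of all genes. Leaving out replicate 2 everywhere left 7, in a fit that called 690 genes in all against 2003.

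Among hyaluronan receptors and binding proteins 4 of 8 were called, 2 in each direction. The scavenger receptors rose in AM: STAB1 was at 59.8, 86.3 and 56.5 CPM in AM TRAC and 36.1, 22.1 and 30.6 CPM in VM TRAC (log2 fold change 1.19, adjusted p 0.00974). STAB2, which clears hyaluronan from the circulation, was at 50.3, 87.4 and 40.6 CPM in AM TRAC and had no count in VM TRAC (edgeR adjusted p 0.00244), which makes it at least 96-fold higher against a floor of 3 counts in a VM library. That floor covers counting error only. The inter-alpha-trypsin inhibitor heavy chains, liver proteins that are joined to hyaluronan, were lower in AM. ITIH2 was at 1.09, 0 and 0 CPM in AM TRAC and 18.5, 21.7 and 53.0 CPM in VM TRAC (log2 fold change −6.39, adjusted p 0.00105), and ITIH1 was at 0.362, 0.156 and 0 CPM against 1.64, 3.71 and 22.8 CPM (−5.60, adjusted p 0.00263). Both were highest in VM TRAC replicate 3, the library with the highest endoderm and hepatic marker sum of the group, whose part was not tested. Of the 8 tested genes of hyaluronan synthesis and breakdown none was called in the TRAC line.

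Among the other ADAMTS proteoglycanases and their inhibitor 3 of 5 were called. ADAMTS8 had a larger difference than any protease of the set: 40.1, 52.3 and 69.6 CPM in AM TRAC against 3.49, 5.16 and 1.94 CPM in VM TRAC (log2 fold change 3.96, SE 0.38, edgeR adjusted p 6.98e-08). ADAMTS15 was higher in AM as well (22.6, 19.98 and 34.98 CPM against 14.0, 7.63 and 17.7 CPM, log2 fold change 0.97, adjusted p 0.0331). TIMP3, the tissue inhibitor of these proteases, was lower (155, 212 and 174 CPM against 203, 316 and 289 CPM, log2 fold change −0.58, adjusted p 0.0439).

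Of the versican-binding matrix genes 2 of 6 were called. FBN2, a microfibril protein of the embryo, was at 626, 641 and 636 CPM in AM TRAC and at 1736, 1633 and 1123 CPM in VM TRAC (log2 fold change −1.24, SE 0.16, edgeR adjusted p 6.3e-06). FBLN2, a fibulin that binds versican, was higher in AM (72.3, 84.9 and 69.4 CPM against 34.5, 38.4 and 45.6 CPM, log2 fold change 0.93, adjusted p 0.000916). Of the 3 tested lecticans and link proteins, ACAN was lower in AM (−3.83, adjusted p 0.011), at 0 to 0.936 CPM against 2.89 to 13.6 CPM. Of 17 genes of chondroitin sulfate chain synthesis, the sulfotransferase CHST11 was called, higher in AM by 0.89 on the log2 scale (adjusted p 0.00166).

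The list of cushion and jelly signals had 4 of 14 genes called. BMP4, a growth factor of cushion formation, was at 141, 133 and 193 CPM in AM TRAC and 14.4, 23.7 and 38.7 CPM in VM TRAC (log2 fold change 2.59, SE 0.35, edgeR adjusted p 4.64e-05). TGFB2 was higher as well (334, 363 and 302 CPM against 203, 229 and 237 CPM, log2 fold change 0.58, adjusted p 0.00877). The transcription factor genes TBX20 (−2.47, adjusted p 1.94e-05) and NFATC1 (−1.31, adjusted p 0.000333), which act in cushions and endocardium, were lower. TBX20 is also expressed in heart muscle. In the same comparison 3 of 8 cardiomyocyte markers were lower, while their summed levels overlapped between the groups, and their part in the TBX20 difference was not tested. Over the 4 lines 6 genes of the lists were called in the same direction each time: ADAMTS8, BMP4 and STAB1 higher, and FBN2, ITIH1 and ITIH2 lower. Of all genes 2.23% were called higher and 1.2% lower in all 4. With the block 5 genes of the lists were higher and 6 lower in all 4, against 3.6% and 2.66% of all genes.

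**Figure D5:**
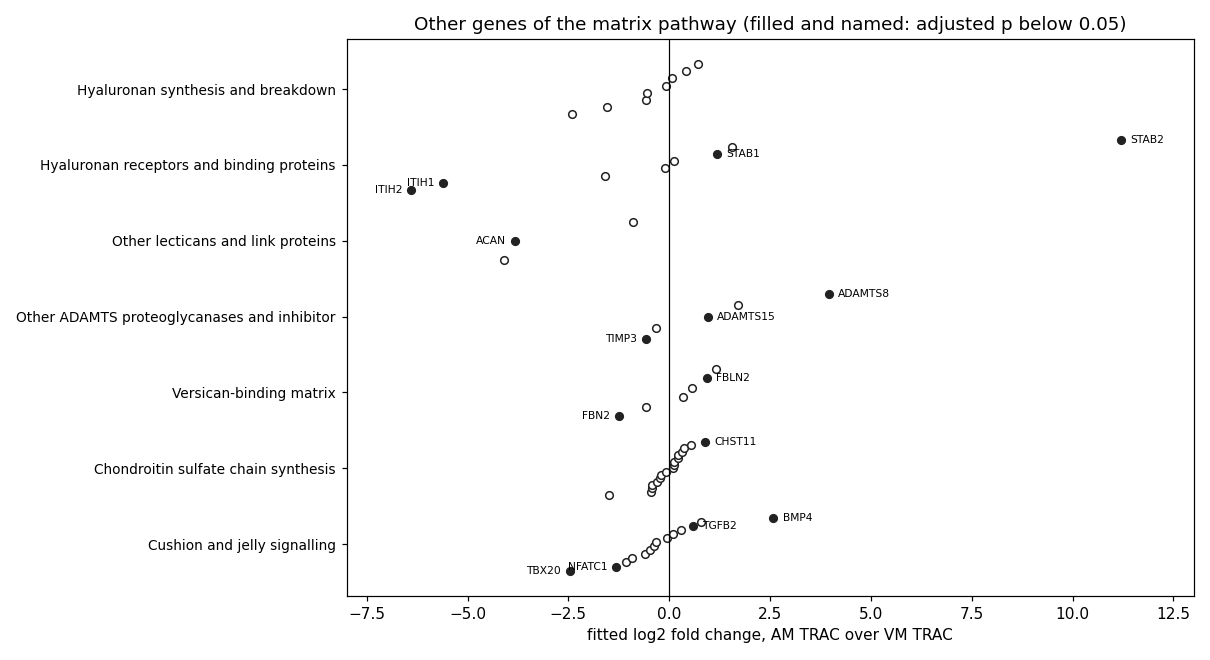
Fitted log2 fold change in AM TRAC against VM TRAC (horizontal axis) for the 61 tested genes of the lists, 1 row for each list, from edgeR without a block, with filled points for an adjusted p under 0.05. STAB2, which had no count in VM TRAC, is drawn at its fitted value, which depends on the prior count.

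Against TRAC, no gene of the lists was called without the block in any of the 6 comparisons. With the block 6 of 61 were called in VM ZNF711 (2.27% of all genes), 5 of them higher. FBN2 was the one that was lower, by −0.53 (SE 0.10, edgeR adjusted p 0.00837), at 1099, 1075 and 919 CPM in VM ZNF711 against 1736, 1633 and 1123 CPM in VM TRAC. The 5 that were higher were GFPT1 (0.46, adjusted p 0.0357), the first enzyme of the hexosamine route that feeds hyaluronan synthesis, the hyaluronan receptor gene HMMR (1.31, adjusted p 0.036), which also acts in mitosis, ADAMTS20 (1.63, adjusted p 0.0445), ERBB3 (0.56, adjusted p 0.0392) and the tenascin gene TNC. In AM LHX2 the blocked fit called 2 of 61 (1.13% of all genes), GFPT1 higher by 0.60 (adjusted p 0.0163) and TWIST1, a factor of cushion mesenchyme, lower by −1.08 (adjusted p 0.0492).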

How the data were processed

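Raw gene counts of 24 libraries, as deposited by the authors without normalization, were used. Per the submitters' processing notes STAR and GRCh38 were used; the counting program, strand setting and annotation are not given in the sources used here. Per the labels the RNA was polyA RNA in one field and depleted with RiboErase (KAPA, Roche) in another. Every count column matched a library by title, with 0 columns unmatched, and 62686 of 62757 genes had a symbol.

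The 9 genes, the lists of related genes and the marker lists were chosen with earlier results of these data known. Genes kept by filterByExpr (17724) were fitted with edgeR 4.0.16 (R 4.3.3), quasi-likelihood with robust dispersion, TMM factors (0.905 to 1.08) and 1 mean for each group, over all 24 libraries with 16 residual degrees of freedom. Each of 13 comparisons had its p-values corrected by the Benjamini-Hochberg method across the 17724 genes, and a gene was called under 0.05. Biological variation came to 25% (coefficient of variation), and to 16.9% once the replicate number was a block. Same-numbered libraries deviated together in 30 of 30 pairs (r 0.12 to 0.79 over 11428 genes). The main fit did not use this pairing, and the fit with the replicate number as a block did. The pairing comes from the titles. All members were named, with fitted values in the TRAC line and elsewhere where called; listed genes were named where called in the TRAC line or against TRAC. Other genes and fits named were chosen after their values were seen. Alternatives were relative log expression scaling, library size alone, no filter, a filter of 1 CPM in 3 libraries, the block, fits limited to the groups compared, DESeq2 1.42.0, and omission of each library or replicate number. The scripts were tested on simulated counts.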

Additional observations from a re-analysis of the deposited data

How the results depend on the processing

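AM ZNF711 against AM TRAC is not counted here, because its VCAN value was known when the genes were chosen. Counts of members called changed by over 1.5 times in the comparisons that follow. VM ZNF711 against VM TRAC went from 0 to 1 with no filter and with the replicate block, in each case VCAN. With libraries omitted the VM ZNF711 count ran from 0 to 1 and was 1 without replicate 3. In AM TRAC against VM TRAC omission gave 1 to 3, with 1 (CD44) without replicate 2. The block also added calls between protocols. These were VCAN in the TRAC line (3 to 4 members) and HAPLN1 in the ZNF503 line (2 to 3). VCAN in the ZNF711 line is not counted, because that comparison holds the AM ZNF711 libraries. The block changed no other call of a member in the comparisons counted here. Library size alone called HAPLN1 in the ZNF503 line as well. Values near 0 changed sign. HAPLN3 in the TRAC line was 0.0053 with library size alone and 0.0114 with the block, and ran from −0.40 to 0.27 with omissions. Omissions also took ADAMTS1 there from −0.0925 to 0.25, HAS3 from −0.0646 to 1.23, the HAS2 interactions from −0.32 to 0.10 (LHX2) and from −0.47 to 0.0143 (ZNF503), and the VCAN interaction for ZNF711 from −0.21 to 0.28. The cause was not tested. The ADAMTS9 call was lost, leaving 2 members, with relative log expression scaling (adjusted p 0.0648), with no filter (0.179), with 1 CPM in 3 libraries (0.0529) and with only the groups compared (0.157). Library size alone raised the share of higher calls from 54.7% to 65.9% in the LHX2 line and from 53.8% to 64.7% in the ZNF503 line. Genes of the related lists called in the TRAC line were 24 with no filter (2279 of all genes) and 23 in DESeq2 (2517). HAS3 (4 to 37) and ADAMTS5 (14 to 56) had the fewest counts per library of the 9 genes; the effect of depth was not tested.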
